A study of Drosophila melanogaster with 135 samples.

Results

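The genes described here are those of the Drosophila melanogaster mitochondrial genome. They were chosen by name, as every gene whose symbol begins with mt: in the 14 deposited mRNA tables, which gave 37 of 17023 genes. These 37 genes were 13 protein coding genes, 2 rRNA genes and 22 tRNA genes. The rule used no measured value, though it was set with earlier results of these data known.

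The study asked how age and partial loss of Polycomb Repressive Complex 2 (PRC2), the enzyme complex that methylates lysine 27 of histone H3, act on adult flies. RNA-seq of polyA-selected RNA was made from muscle and from heads of adult male flies, with 3 libraries per group, each from pooled tissue of many flies. The tables held 20 groups, 11 of muscle and 9 of heads, each given as 1 mean of normalized counts over its 3 libraries. All comparisons below are therefore descriptions of group means, with no error between libraries and no test.

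The wild type (WT) was the line 5905, an isogenic w1118 stock kept at 25°C. WT muscle was measured at 3d and at 30d, and every other group was 30d old. The mutants were heterozygous for CRISPR deletions named in the labels as esc289, E(z)239, Pcl421, Su(z)12253 and p55192, each a single line backcrossed into 5905, and the labels number the allele of the 3 Pcl single mutant libraries Pcl421, Pcl422 and Pcl423 in muscle and in heads. The double mutants carried esc289 with E(z)239, or Pcl421 with Su(z)12253, 1 mutant copy of each. The 5 single mutants of muscle shared 1 WT group, the 4 single mutants of heads shared another, and each double mutant had a WT group of its own in each tissue. The 30d WT group of the age comparison was also the WT group of Pcl Su(z)12 in muscle, with the same means in both tables. Libraries were placed by their titles, and for both other WT groups of muscle and for the Pcl libraries and single mutant controls of heads the descriptions wholly or in part name other tables than the titles do, so which libraries stand behind those means is less sure.

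The mitochondrial genome of the fly encodes core subunits of 4 complexes of oxidative phosphorylation (OXPHOS), the 2 rRNAs of the mitochondrial ribosome and the tRNAs that it needs, while all other subunits and all factors of mitochondrial transcription come from nuclear genes. Both strands are read into long precursor RNAs, and the tRNAs that lie between the genes are cut out, which frees the mRNAs and rRNAs. Mitochondrial mRNAs then receive short polyA tails, and it is these tails that polyA selection captures. Flight muscle and the nervous system of insects are rich in mitochondria.

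The annotation of build dm6 places the 37 genes on a circle of 19524 bases with an AT content of 82.2%. The 13 mRNA genes and 2 rRNA genes fell into 4 runs on alternating strands. The first run, on the plus strand, holds ND2, CoI, CoII, ATPase8, ATPase6, CoIII and ND3, and the second, on the minus strand, holds ND5, ND4 and ND4L. The third, again on the plus strand, holds ND6 and Cyt-b, and the fourth, on the minus strand, holds ND1, lrRNA and srRNA. All sequences below were read from the RefSeq assembly of the same build, in the mitochondrial chromosome MT.

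The ends of 4 mRNA genes are shown because RefSeq notes that their stop codon is completed by added A residues, so that a tail is needed to make the message. The capital marks the single base of the stop codon that the genome encodes, and the sequences are 5′ to 3′ on the coding strand (ND2 at MT:1234-1263 plus, CoII at MT:3738-3767 plus, ND5 at MT:6409-6438 minus, ND4 at MT:8207-8236 minus).
mt:ND2: ttttaatttctttattttattttatatttT
mt:CoII: ttattaaatgaatttctagaaataactctT
mt:ND5: ttttaattttattaattttattatttttaT
mt:ND4: taaaaagagaatcatttatattatgattaT
Each of the 4 genes ends in a lone T. The longest run of A inside any of the 15 mRNA and rRNA genes was 8 bases, and their AT content lay between 70.7% and 85.7%.

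The overlap of ATPase8 and ATPase6 is shown because both proteins are read from 1 message (MT:4051-4079, plus strand). The capitals are the 7 bases that belong to both genes, which begin with the start codon of ATPase6 and end with the stop codon of ATPase8.
mt:ATPase8 and mt:ATPase6: ataaattgaaaATGATAAcaaatttattt

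The places where the coding strand turns from plus to minus are shown because the fly termination factor mTTF is known to bind there (MT:6320-6349 and MT:11698-11726, plus strand). The capitals are the bases between the facing genes.
mt:tRNA:E to mt:tRNA:F: taaattACTAAAATTAATTCACTAtatcca
mt:tRNA:S:UCN to mt:ND1: taacttTTACTAAAAAAAATTCActataa
The first junction lies between ND3 and ND5, and the second lies between Cyt-b and ND1.

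All 13 mRNA genes and both rRNA genes had a mean of at least 10 normalized counts in every table, so 15 of the 37 genes could be followed. The 22 tRNA genes were at 0 in every group, except that tRNA:M had a mean of 0.344 in the 30d WT head group of Pcl Su(z)12. Their lengths were 62 to 72 bases, shorter than the 100-base reads, and the counting assigned a read only where it lay wholly within a gene. The tRNAs were therefore not measured.

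The labelled tissues were checked against marker genes. Act88F, the actin of the indirect flight muscle, made 106 to 491 CPM (a group's normalized counts scaled to a common sum) in the 11 muscle groups and 2.52 to 8.98 in the 9 head groups. ninaE, the main rhodopsin of the eye, made 3.18 to 38.0 CPM in muscle and 24400 to 31300 in heads. Fbp1, a fat body gene, was at 1.03 CPM or less in every group, and how much fat body the samples held was not tested. Other markers were less well separated. Mhc, a muscle marker, made 2600 to 5080 CPM in muscle and 766 to 961 in heads. nSyb, a head marker, made 1150 to 1330 CPM in heads and 156 to 180 in muscle. The muscle and head markers were thus higher in the tissue of their label, while each tissue also held signal of the other's markers. The targeted genes were lower in their mutants by 0.30 to 1.65 on the log2 scale for esc and by 0.71 for p55, while E(z), Pcl and Su(z)12 lay between -0.29 and 0.17. Column sums ran from 4455811 to 11591935 in muscle and from 4842591 to 7683336 in heads. Tables that shared a WT group gave it the same means, so their counts are on a common scale. Tables with different WT groups may differ in scale, so levels are set across these only as a share of the column sum.

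Mitochondrial transcripts took a far larger share of the RNA signal in young muscle than in older muscle or in heads. In WT muscle at 3d the mitochondrial genome held 25.9% of all normalized counts. The 3 WT muscle groups at 30d held 9.09%, 6.04% and 5.98%. The 7 mutant muscle groups at 30d ran from 4.22% in E(z) to 9.69% in Pcl Su(z)12. In heads at 30d the 3 WT groups held 4.60%, 4.58% and 3.28%, and the 6 mutant groups ran from 3.73% in esc E(z) to 4.92% in esc. The young group thus stood far above every other group, and muscle and head overlapped at 30d. In bulk tissue, fewer muscle cells, fewer mitochondria per cell and less RNA per mitochondrion cannot be told apart.

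**Figure D1:**
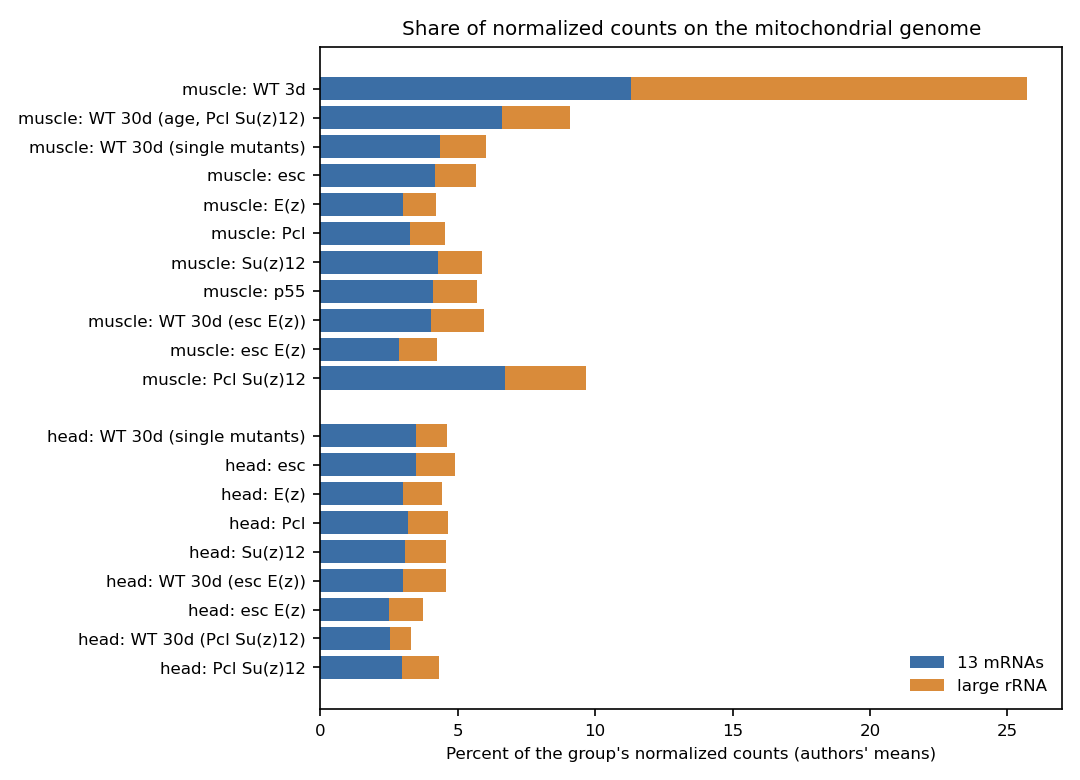
Share of each group's normalized counts that came from the mitochondrial genome (x axis, percent, authors' group means) for 20 groups, split into the 13 mRNAs and the large rRNA, with the small rRNA too low to be drawn. The 3d WT muscle bar is the longest and its large rRNA part (14.4%) exceeds its mRNA part (11.3%), while all bars at 30d end at or below 9.69%.

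Within the mitochondrial signal the large rRNA changed places with the mRNAs. At 3d lrRNA, the RNA of the large ribosomal subunit, held 14.4% of all counts and the 13 mRNAs 11.3%. At 30d lrRNA held 1.69% to 2.48% in WT muscle and the mRNAs 4.04% to 6.60%. The ratio of lrRNA to the summed mRNAs was 1.27 at 3d, 0.36 to 0.49 over the 10 muscle groups at 30d and 0.29 to 0.52 over the 9 head groups. The young group was thus the only one of the 20 in which the large rRNA outweighed the mRNAs. srRNA, the RNA of the small subunit, held 0.114% at 3d and 0.00246% to 0.00852% in muscle at 30d. The lrRNA signal was 126 times the srRNA signal at 3d and 188 to 509 times at 30d in muscle, although both RNAs are made for the same ribosome. How far polyA selection follows the amount of an rRNA was not tested.

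In the comparison of 30d with 3d WT muscle, all 13 mitochondrial mRNAs were lower at 30d, with a median log2 ratio of -1.60, and 12 of 13 were lower by at least 1.5-fold. Over all 9294 genes with a mean of at least 10, 13.6% were lower by that much and the median log2 ratio was 0.02. The 13 mRNAs differed among themselves by more than 2 log2 units, from -2.59 for ND4 to -0.44 for ND2.

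Among the 7 subunits of complex I, the NADH dehydrogenase that feeds electrons into the chain, ND4 and ND5 were the furthest down. ND4, a proton-pumping subunit of the membrane arm, had 39917 normalized counts at 3d and 6628 at 30d, a ratio of -2.59. ND5, another proton-pumping subunit, had 51082 and 11176, a ratio of -2.19. ND4L, a small membrane subunit encoded next to ND4, had 350 and 96.2, a ratio of -1.86. These 3 genes form the second strand run, and each was lower by at least 3.64-fold. ND6 and ND1, subunits of the membrane arm, had ratios of -1.60 and -1.58, and ND3, a small subunit at the junction of the arms, had -1.34. ND2, a proton-pumping subunit, had 1265 counts at 3d and 932 at 30d. At -0.44 it was the 1 mRNA that did not reach 1.5-fold, and it is the first gene of the plus strand run.

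Cyt-b, the only mitochondrially encoded subunit of complex III, had 208046 counts at 3d and 52240 at 30d, a ratio of -1.99. The 3 subunits of complex IV, the cytochrome oxidase, were less far down than Cyt-b. CoI, which holds the site where oxygen is reduced, had 537520 and 258071 counts, a ratio of -1.06. CoII, which takes electrons from cytochrome c, had a ratio of -1.38, and CoIII, the third core subunit, had -1.59. Apart from ND2, the CoI message was thus the least reduced of the 13. The ATP synthase subunits ATPase6 and ATPase8, both in the membrane part of the enzyme, had ratios of -1.98 and -1.83.

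The rRNAs were further down than any mRNA. lrRNA had 1671997 counts at 3d and 181090 at 30d, a ratio of -3.21, and srRNA had 13241 and 585, a ratio of -4.50. By strand run the median ratios were -1.38 over the 7 genes of the first, -2.19 over the 3 genes of the second and -1.80 over the 2 genes of the third. In the fourth run ND1 stood at -1.58 while its neighbours lrRNA and srRNA stood lower, so 1 run held both a middling mRNA and the 2 lowest RNAs.

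**Figure D2:**
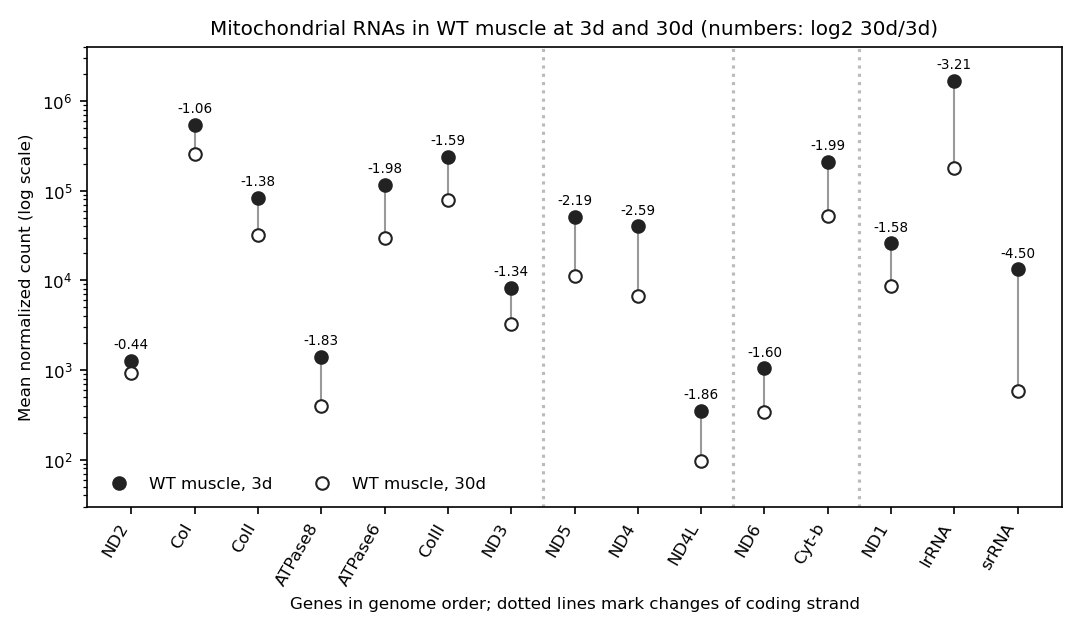
Mean normalized count (y axis, log scale) of the 15 mitochondrial mRNA and rRNA genes in WT muscle at 3d (filled) and 30d (open), in genome order, with the log2 ratio above each pair and dotted lines where the coding strand changes. Every open point lies below its filled point, from -0.44 for ND2 to -4.50 for srRNA.

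Nuclear genes of the same pathway moved in the same direction with age. Of 91 nuclear genes for OXPHOS subunits, 69 had a mean of at least 10 in this table, 67 of these were lower at 30d and 62 were lower by at least 1.5-fold, beside 13.6% of all genes. Their median log2 ratio was -1.34. By complex the medians were -1.16 over 33 genes of complex I, -1.11 over 4 of complex II, -1.37 over 8 of complex III, -1.62 over 11 of complex IV and -1.97 over 13 of the ATP synthase. In both genomes the ATP synthase subunits were thus lower than the complex I subunits at the median, with -1.91 over 2 and -1.60 over 7 mitochondrial genes. Complex IV differed between the genomes, with the nuclear median of -1.62 below that of nuclear complex I and the mitochondrial median of -1.38 above that of mitochondrial complex I. The lowest nuclear genes were sun, the epsilon subunit of the ATP synthase, at -2.81, and ATPsynC, which forms its rotor ring, at -2.68. The highest were ND-23, an iron-sulfur subunit of complex I, at 0.11, and COX7A, a small subunit of complex IV, at 0.04.

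Summed within a group, the mitochondrial mRNAs were 1.77 times the nuclear OXPHOS mRNAs at 3d and 1.78 times at 30d, while their shares were 11.3% and 6.60%, and 6.41% and 3.70%. The other 2 WT muscle groups at 30d had lower ratios, 1.12 and 0.924, so the balance of both genomes at 30d varied between WT groups. Muscle markers were lower at 30d as well: all 6 of Act88F, Mhc, Mlp84B, TpnC4, fln and up were below 0, and their summed level was 112805 at 3d and 39207 at 30d, a log2 ratio of -1.52. Of the 4 head markers, 2 were below 0. The part of the muscle markers' shift in the mitochondrial result was not tested. When both columns were scaled to equal sums, the median of the 13 mRNAs was -0.94, and when they were scaled to equal sums outside the mitochondrial genome it was -1.23.

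The makeup of the mitochondrial mRNA pool differed between tissues and between ages. To compare genes, levels were divided by gene length and given as a percent of the sum over the 13 mRNAs in that group. CoI was the highest and CoIII the second in all 20 groups, at 22.8% to 42.5% and 21.7% to 25.0%. Cyt-b, ATPase6 and CoII took places 3 to 5 in every group, and their order varied between groups. ND1, ND5, ND4 and ND3 shared places 6 to 9 at 0.90% to 3.68%, ATPase8 was always in place 10, and ND2, ND6 and ND4L were the lowest at 0.05% to 0.38%. The 3 complex IV messages, Cyt-b and ATPase6 thus lay well above those of complex I, ATPase8 lay below 4 of the 7 complex I messages, and neighbours within these tiers changed places between groups.

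The share of CoI in the pool separated old muscle from the rest. It was 30.7% to 42.5% in the 10 muscle groups at 30d, 28.0% in muscle at 3d and 22.8% to 27.0% in the 9 head groups. ND4 ran the other way, with 0.90% to 1.83% in muscle at 30d, 2.38% at 3d and 2.24% to 2.78% in heads. ND5 was at 1.32% to 2.16%, 2.38% and 2.31% to 3.02% in the same order, and ATPase6 at 8.62% to 12.2%, 13.8% and 12.3% to 15.5%. For these genes, chosen after their values were seen, the young muscle group lay within or next to the range of the heads and outside the range of old muscle. ND1 was different, with 2.20% at 3d inside the 1.74% to 3.38% of old muscle and below the 3.19% to 3.68% of heads. CoIII, at 24.1% in young muscle, lay within the range of both. Muscle at 3d was a single group, so the spread between young groups was not measured.

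**Figure D3:**
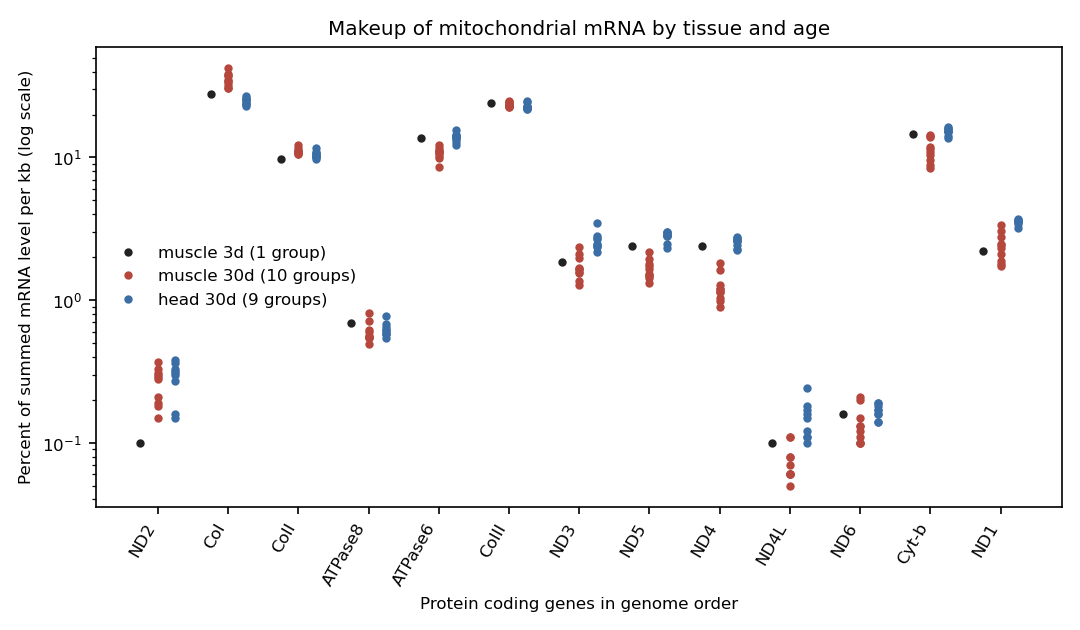
Percent of the summed mRNA level per kb (y axis, log scale) for each of the 13 mRNA genes in genome order, with 1 point per group for muscle at 3d, muscle at 30d and heads at 30d. CoI is higher and ND4 and ND5 are lower in muscle at 30d than in heads, with muscle at 3d beside the heads.

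Genes of 1 message were not counted alike. ATPase8 and ATPase6 lie on 1 message, yet ATPase8 made 0.49% to 0.81% of the pool per kb and ATPase6 made 8.62% to 15.5%. ATPase8 is 162 bases long and holds 63 positions for a read of 100 bases, and as level per such position ATPase8 made 1.13% to 1.84% and ATPase6 9.0% to 16.0%. The gap narrowed but remained. ND4L and ND4, which also share a message, stood at 0.05% to 0.24% and 0.90% to 2.78% per kb. Levels of these short genes are thus given only as counted, while their ratios between groups use the same positions.

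Mitochondrial mRNAs were lower than in WT in muscle of E(z), Pcl and esc E(z), by less than the difference with age. In E(z) all 13 mRNAs were below WT, with a median log2 ratio of -0.56 and a range from -0.73 to -0.42, and 6 of 13 were lower by 1.5-fold beside 2.29% of 8818 genes. In esc E(z), against its own WT group, all 13 were below, with a median of -0.53, and 4 of 13 were lower by 1.5-fold beside 2.6% of 8968 genes. In Pcl all 13 were below, with a median of -0.46, and 1 of 13, ND4L, reached 1.5-fold beside 1.64% of 8827 genes. E(z) and Pcl share a WT group, so a high value in that group would lower both. The rRNAs went the same way, with lrRNA at -0.50, -0.43 and -0.50 and srRNA at -0.74, -0.72 and -0.68 in E(z), Pcl and esc E(z).

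E(z) showed the most even shift of all. Its range from -0.73 to -0.42 was the narrowest of the 14 comparisons, and the medians by complex were -0.65 for complex I, -0.66 for Cyt-b, -0.51 for complex IV and -0.59 for the ATP synthase. CoI had 96087 counts in WT and 66576 in E(z), Cyt-b had 24743 and 15607, and ATPase6 had 15030 and 9045. Genes of both strands moved alike, with a median of -0.56 over the plus strand and -0.59 over the minus strand.

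In the other muscle mutants the medians were closer to 0 and the genes were divided. In Su(z)12 the median was -0.27, 9 of 13 were below WT and 0 of 13 reached 1.5-fold, beside 2.82% of 8833 genes. In p55 the median was -0.15, 8 of 13 were below and 0 of 13 reached 1.5-fold, beside 1.85% of 8825 genes. Both had lower Cyt-b, at -0.35 and -0.52, and lower ND1, at -0.51 and -0.50, while CoI stood at 0.11 and 0.03 and CoII at 0.08 and 0.07. Both were set against the same WT libraries. In Pcl Su(z)12 the median was -0.21, 11 of 13 were below WT and 2 of 13, ND4L and ND6, were lower by 1.5-fold, beside 2.27% of 9349 genes, while CoI was at 0.14 and lrRNA at 0.27. As a sum over the 13 mRNAs, to which CoI adds most, the ratio was 0.03 in Pcl Su(z)12 and -0.01 in Su(z)12, so the direction in Pcl Su(z)12 turned with the measure. In esc the median was -0.09, 8 of 13 were below WT and 1 of 13, ND2, was lower by 1.5-fold, beside 2.54% of 8809 genes. CoI and Cyt-b thus parted in Su(z)12, p55 and Pcl Su(z)12, with CoI above Cyt-b, parted the other way in esc, at -0.13 and 0.16, and lay closer together in E(z), Pcl and the esc E(z) double mutant.

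The WT groups give a guide to the spread between groups of 1 genotype. Over the 3 WT muscle groups at 30d, the share of the 13 mRNAs ran from 4.04% to 6.60%, a range of 0.71 on the log2 scale with an SD of 0.38. Of the 7 mutant groups, 3 lay inside that range, 3 below it and 1 above it. The 3 below were E(z) at 3.01%, Pcl at 3.25% and esc E(z) at 2.86%, and the 1 above was Pcl Su(z)12 at 6.71%, whose own WT group was the highest of the 3 WT groups. For the whole mitochondrial genome and for lrRNA, 0 of the 7 mutant groups lay inside the WT range, 6 lay below it and 1 above it. For the whole genome, Su(z)12 at 5.88%, p55 at 5.70% and esc at 5.66% lay just below the lowest WT group at 5.98%. Their log2 ratios to their own WT group were -0.04, -0.08 and -0.09, beside an SD of 0.34 between WT groups. Among single mRNAs, 7 of the 7 lay below the WT range for ND4L, 6 for ND1, ND2 and ND3 and 5 for ATPase8, ND5 and Cyt-b. The number was 4 for ATPase6 and ND4, 3 for CoI, CoII and CoIII and 2 for ND6. The same count over all genes is not given here, so how unusual these numbers are is not known. How many mutants lay outside the WT range thus differed from gene to gene. The value at 3d, 11.3%, lay far above all of them.

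**Figure D4:**
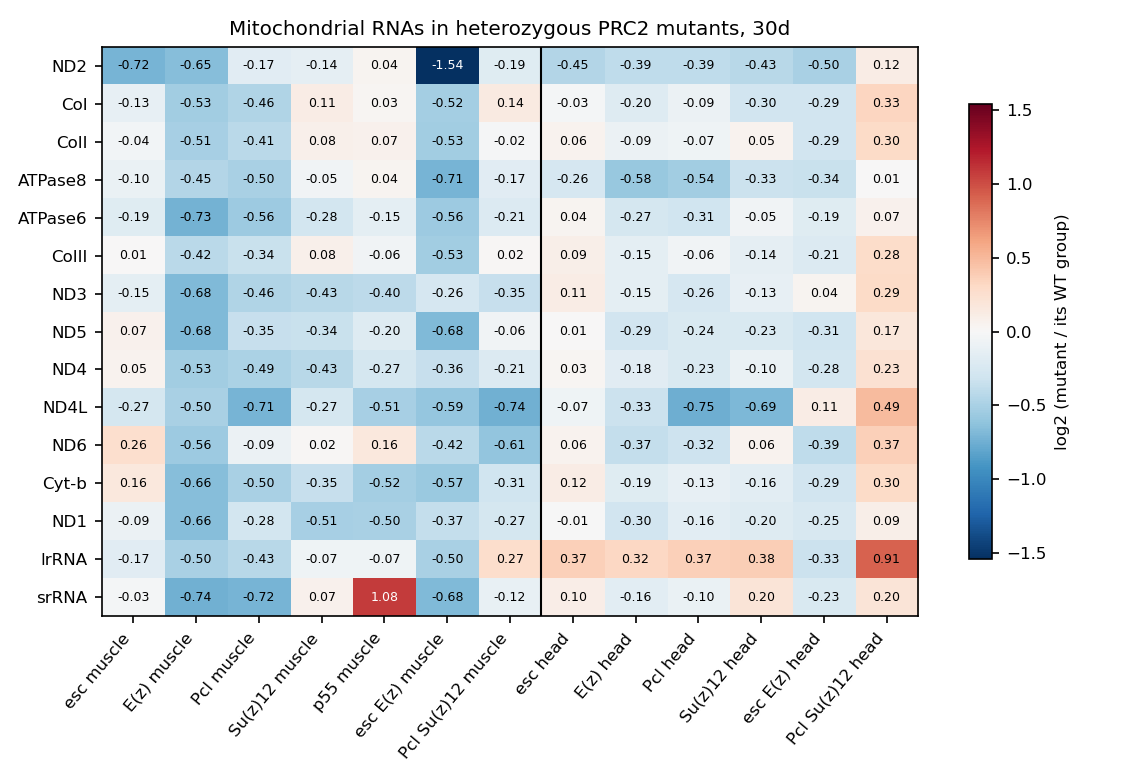
Log2 ratio of each mutant group over its WT group at 30d for the 15 mitochondrial mRNA and rRNA genes (rows) in 7 muscle and 6 head comparisons (columns, divided by the black line), with blue for lower and red for higher in the mutant. E(z), Pcl and the esc E(z) double mutant are below 0 in every row in muscle, from -0.42 to -0.74 in E(z), and Pcl Su(z)12 in heads is the only column in which no row is below 0.

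In heads the medians of the mRNAs were closer to 0 than in muscle for every mutant measured in both tissues except Pcl Su(z)12. In esc E(z) the median was -0.29 and 11 of 13 were below WT, in E(z) it was -0.27 and 13 of 13 were below, and in both 0 of 13 were lower by 1.5-fold, beside 2.23% of 9200 genes and 1.46% of 9052 genes. In Pcl the median was -0.24, 13 of 13 were below WT and 1 of 13, ND4L, reached 1.5-fold, beside 1.87% of 9049 genes. In Su(z)12 the median was -0.16, 11 of 13 were below and 1 of 13, again ND4L, reached 1.5-fold, beside 2.1% of 9087 genes. In esc the median was 0.03, with 5 of 13 below WT and 0 of 13 reaching 1.5-fold, beside 1.53% of 9060 genes.

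Pcl Su(z)12 heads were the 1 comparison with no mRNA below its control. All 13 mRNAs were above WT, with a median of 0.28 and a range from 0.01 for ATPase8 to 0.49 for ND4L, and 0 of 13 were higher by 1.5-fold, beside 2.12% of 9452 genes, or lower by 1.5-fold, beside 2.17%. Its WT group held the lowest mitochondrial share of the 3 WT head groups, 3.28% against 4.58% and 4.60%, and the mutant's own 4.33% lay between them. The share of the 13 mRNAs in the 3 WT head groups ran from 2.54% to 3.47%, and 4 of the 6 mutant groups lay inside that range.

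The large rRNA stood apart from the mRNAs in heads. It was higher than WT by 0.38 in Su(z)12, 0.37 in both esc and Pcl and 0.32 in E(z), all against 1 shared WT group, and by 0.91 in Pcl Su(z)12, while it was at -0.33 in esc E(z). As a share of all counts lrRNA held 1.13%, 1.56% and 0.74% in the 3 WT head groups and 1.23% to 1.49% in the 6 mutant groups. All 6 mutants lay inside the range of the WT groups, and both WT groups below them were those of the comparisons in which lrRNA was higher. srRNA lay between -0.23 and 0.20 in heads, on the same side of 0 as lrRNA in esc, Su(z)12 and both double mutants and on the other side in E(z) and Pcl.

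ND2 was the mRNA that parted most from the others. Its ratio differed from the median of the other 12 by between -1.02 and 1.28 over the 14 comparisons, and it was the lowest of the 13 in 4 of them. In esc muscle ND2 had 572 counts in WT and 348 in the mutant, a ratio of -0.72, while the next lowest mRNA was ND4L at -0.27. In esc E(z) muscle it had 603 and 207, a ratio of -1.54, while the other 12 lay between -0.71 and -0.26. ND2 held 0.0119% to 0.0128% of all counts in the 3 WT muscle groups at 30d, the narrowest range of the 13 mRNAs, and 0.00768% in esc, 0.00816% in E(z) and 0.00415% in esc E(z). The other 4 muscle mutants held 0.0111% to 0.0129%.

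In heads ND2 also varied between WT groups. The single mutants' WT group held 0.0131%, the one set against esc E(z) held 0.0106% and the one set against Pcl Su(z)12 held 0.00406%. The 4 single mutants held 0.00936% to 0.0100%, while esc E(z) held 0.00748% and Pcl Su(z)12 held 0.00429%. The range between WT head groups, 1.69 on the log2 scale, thus exceeded every difference between a head mutant and its WT group.

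A few single values stood out at low counts. In p55 muscle srRNA had 184 counts in WT and 389 in the mutant, a ratio of 1.08, while lrRNA was at -0.07. The p55 group, at 0.00852% of all counts, was the highest of the muscle groups at 30d, next to 0.00801% in the WT group of the age comparison. ND4L, with 24.1 to 96.2 counts in muscle at 30d, held 0.000542% to 0.000841% in the 7 mutant groups and 0.000874% to 0.00132% in the 3 WT groups. The facing ends of these ranges lay close together, and the single mutants shared 1 WT group. ND4L was the mRNA with the most mutant groups below the WT range, and how often other genes part the groups this way is not given here.

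Nuclear OXPHOS genes did not share the lower levels of the mitochondrial mRNAs in the mutants. Their medians lay between -0.04 and 0.22 over the 13 mutant comparisons. In E(z) muscle 36 of 69 nuclear genes were below WT, with a median of -0.01 and a lowest gene at -0.25, beside 13 of 13 mitochondrial mRNAs at -0.42 or lower. In esc E(z) muscle the nuclear median was -0.04 beside -0.53, in Pcl muscle -0.04 beside -0.46 and in p55 muscle 0.22 beside -0.15. The mitochondrial median was lower than the nuclear one in 12 of the 13 mutant comparisons, by 0.01 to 0.55, and higher only in Pcl Su(z)12 heads, by 0.26. These comparisons share WT groups as given above. No nuclear gene of the list was lower by 1.5-fold in any mutant, beside the 1.46% to 2.82% of all genes given above. ND-B8, an accessory subunit of complex I, was higher by 1.5-fold in esc muscle at 0.68, 1 of 69 beside 2.28% of 8809 genes, and is named after its value was seen. These counts are near the share over all genes.

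As sums, the mitochondrial mRNAs were 1.78, 1.12 and 0.924 times the nuclear OXPHOS mRNAs in the 3 WT muscle groups at 30d, and the mutants ran from 0.658 in esc E(z) to 1.74 in Pcl Su(z)12. In heads the ratio was 1.96 to 2.62 in WT and 1.72 to 2.63 in the mutants. Heads thus held more mitochondrial message per nuclear OXPHOS message than most muscle groups at 30d, although nuclear OXPHOS genes took 1.27% to 1.45% of all counts in heads and 3.70% to 4.58% in muscle at 30d. The muscle markers had summed ratios of 0.03, -0.04 and 0.19 in E(z), Pcl and esc E(z) muscle, with 3, 4 and 2 of the 6 below WT. Whether muscle content bears on the mitochondrial mRNAs of these mutants was not tested.

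**Figure D5:**
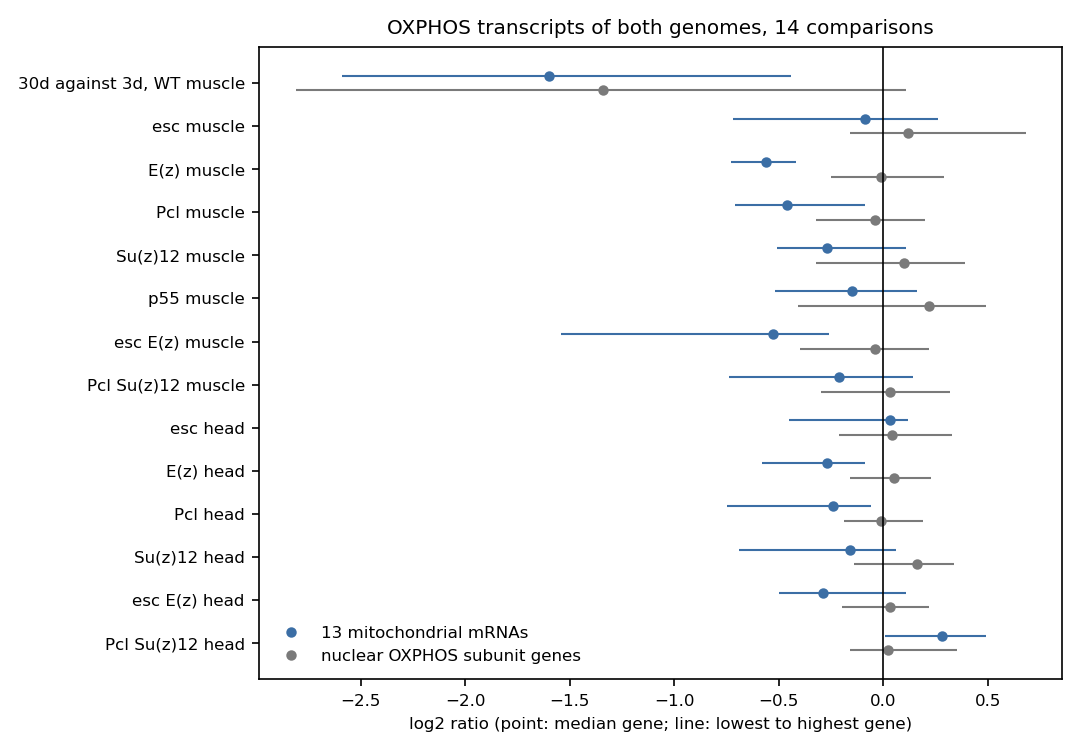
Log2 ratio (x axis) of the 13 mitochondrial mRNAs and of the nuclear OXPHOS subunit genes in 14 comparisons (30d over 3d, or mutant over WT), with the median gene as a point and the lowest to highest gene as a line. Both medians are far below 0 for age, at -1.60 and -1.34, while in the mutants the nuclear medians stay between -0.04 and 0.22.

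The nuclear factors that transcribe, process and maintain the mitochondrial genome were read beside the mitochondrial RNAs. Of 18 such genes, 15 had values and mtTFB1, SLIRP1 and PolG2 were listed at 0 in every group. TFAM, which packages the genome and activates its promoters, lay between -0.20 and 0.13 over the 14 comparisons, and mtRNApol, the mitochondrial RNA polymerase, between -0.27 and 0.18. With age in muscle, TFAM was at -0.20, mtRNApol at -0.27, mTTF at -0.39 and mtTFB2, a transcription initiation factor, at -0.41, beside the -1.60 of the mRNAs. bsf, the fly relative of the mRNA-stabilising protein LRPPRC, was higher at 30d, with 741 counts at 3d and 1220 at 30d, a ratio of 0.72. None of the other comparisons had bsf outside -0.30 to 0.08.

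mtTFB2 passed 1.5-fold in 4 comparisons, all in single mutants of muscle against their shared WT group. That WT group was high for mtTFB2, with 68.5 counts in a column sum of 4524953. The WT muscle group of esc E(z) had 41.0 in 5085069, and that of Pcl Su(z)12 had 49.8 in 7305280. A high value in the shared WT group lowers the ratio of every mutant set against it. Against 68.5 counts in WT, esc had 32.4, Su(z)12 had 37.9, E(z) had 40.2 and p55 had 44.4, while Pcl had 91.6. Among these mutants esc had the lowest mtTFB2, at -1.08, with a mitochondrial median of -0.09, and Pcl had the highest with a median of -0.46. Whether mtTFB2 bears on the mitochondrial mRNAs was not tested. mTTF was at -0.53 in E(z), -0.46 in Su(z)12 and -0.34 in esc muscle, and between -0.29 and 0.21 in heads. mtSSB, which coats single-stranded DNA during replication, passed 1.5-fold upward in 4 comparisons, in muscle of Pcl, Su(z)12, p55 and esc E(z), at 7.52 to 16.9 counts, close to the minimum mean of 10.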

How the data were processed

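The authors sequenced polyA-selected RNA as single-end 100-base reads, aligned them with STAR, counted reads per gene with HTSeq without regard to strand and only where a read lay wholly within 1 gene, and normalized the counts with DESeq. The deposited mRNA tables hold a signal, the mean normalized count of each group, together with the authors' own fold changes and p-values, which were not used. The genome builds of the labels include dm6. No table column lay outside the sample list. The 60 libraries stand behind 20 group means in 14 tables, so precision per library is unknown. The other 75 samples and 2 small RNA tables were not used here.

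Log2 ratios were taken of the second over the first group mean, with no pseudocount. Gene medians and the share past 1.5-fold used genes with a mean of both groups of at least 10. Shares used the sum over all 17023 genes. Members were matched by gene ID to Ensembl release 115 and RefSeq, and all 37 were found. Nuclear OXPHOS genes were taken by current symbol, and 88 genes of the study's own list served as an alternative. All mitochondrial genes were named, with the 2 highest and 2 lowest nuclear OXPHOS genes with age at a mean of at least 50, and TFAM, mtRNApol, mtTFB2, bsf, mTTF and any factor past 1.5-fold in 3 or more tables. Members and lists were chosen with earlier results of these data known. Calculations ran in Python 3.11.15 with pandas 2.3.3 and numpy 2.4.6. Known shifts put on simulated group means were returned by the ratio calculation, which checks its arithmetic only.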

Additional observations from a re-analysis of the deposited data

How the results depend on the processing

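No paired analysis was possible because the tables hold 1 mean per group, and no library could be left out for the same reason. The median of the mitochondrial mRNAs kept its direction in the age comparison under all 6 alternatives. It moved from -1.60 to -0.94 with equal column sums. The log2 ratio of the mitochondrial share with age moved from -1.51 to -0.97 without both rRNA genes. In the 13 mutant comparisons no alternative moved a median or a share by more than the SD between WT groups, 0.38 in muscle and 0.23 in heads. Within that SD, 2 values near 0 turned direction: Pcl Su(z)12 muscle went from a median of -0.21 to 0.03 as a summed level, and the mitochondrial share in Pcl heads went from 0.01 to -0.12 without both rRNA genes. The study's list of OXPHOS genes moved the nuclear median by at most 0.18.

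Counts of mRNAs past the fold depended on the fold. The share of all genes past 1.2-fold or 2-fold is not given here, so how unusual the counts below are is not known. At 1.2-fold the number of 13 that were lower for muscle was 13 (E(z)), 12 (esc E(z)), 11 (Pcl), 7 (Su(z)12), 5 (p55), 5 (Pcl Su(z)12) and 2 (esc), and for heads 8 (esc E(z)), 7 (E(z)), 5 (Pcl), 4 (Su(z)12) and 1 (esc). At 2-fold it was 1 for muscle of esc E(z) and 0 for muscle of Pcl, Pcl Su(z)12, esc and E(z) and for heads of Su(z)12 and Pcl. With a minimum mean of 50 the count in Pcl muscle was 0. Levels per kb of CoI as a percent of the mRNAs were 34.2% in WT muscle and 25.1% in WT heads of the single mutants, and 32.4% and 23.7% with length less 99 bases.

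A common scale was shown only for tables that shared a WT group, which gave that group the same means. The 3 WT groups per tissue are the only guide to the spread, and the 3d age has 1 group. Reads were counted without strand, so RNA antisense to a mitochondrial gene cannot be told apart from its own.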
